A study of Mus musculus with 4 samples.

Results

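In brown adipose tissue (BAT), 7 genes of the angiotensin and natriuretic peptide systems were examined, chosen by name out of 55387 gene rows listed in every library. They were Agt, Ace, Agtr1a and Agtr2 of the angiotensin system and Npr1, Npr2 and Npr3, the natriuretic peptide receptors, and each symbol matched exactly 1 row. RNA sequencing was done on BAT of 15-week-old male mice, with 1 library per mouse. The control mice were Sox4f/f (n = 2), called WT in the labels, in which both copies of Sox4 are flanked by loxP sites and no Cre is present. The Sox4-MKO mice (n = 2) were littermates that also carry a Cre recombinase driven by Myf5, a gene active in the precursors of brown adipocytes and of skeletal muscle, so that the deletion is not directed at the vascular, immune and nerve cells of the depot.

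Angiotensinogen, the product of Agt, is the only known precursor of the angiotensins. Renin cuts it to angiotensin I, angiotensin-converting enzyme (ACE) cuts that to angiotensin II, and angiotensin II acts through the type 1 and type 2 receptors encoded by Agtr1a and Agtr2. Atrial and B-type natriuretic peptides bind the receptor encoded by Npr1 and C-type natriuretic peptide that encoded by Npr2, and both receptors make cyclic GMP (cGMP). The product of Npr3 lacks the cyclase and removes the peptides from the tissue. In adipose tissue natriuretic peptides are known to raise lipolysis and thermogenic genes through cGMP, while white and brown adipocytes are known to make angiotensinogen.

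Values are in FPKM, the fragments of a transcript per kilobase of length, corrected for how many fragments of a library were mapped, so that levels of different genes can be compared. Between 12100000 and 16200000 fragments per library were estimated from genes with a single annotated transcript. Sox4 itself reached 1.98 and 1.06 FPKM in the control mice, and 0.981 and 3.06 FPKM in the mice labelled Sox4-MKO, so the mRNA of the deleted gene did not separate the genotypes and its log2 fold change was 0.20 ± 0.43 (standard error), at an adjusted p of 0.843 in limma. Ucp1, the uncoupling protein gene of brown fat, had 1935 and 1814 FPKM in the control mice but 734 and 1105 FPKM under the Sox4-MKO label. Its unadjusted p was 0.00693 and its adjusted p 0.213 by limma. Cidea, another brown adipocyte gene, had 1742 and 1849 FPKM and 989 and 984 FPKM (unadjusted p = 0.00109, adjusted p = 0.196 by limma). The directions given here follow the labels. Summed over 8 skeletal muscle markers, the libraries had 185 and 689 FPKM in Sox4f/f mice 1 and 2 and 13260 and 2382 FPKM in mice 1 and 2 labelled Sox4-MKO, so that mouse 1 labelled Sox4-MKO stood apart. In a whole-tissue library, fewer cells of a type and less RNA per cell cannot be told apart.

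The promoters of Agt and Ace are shown because these were the members that differed most between the genotypes. RefSeq windows on GRCm38.p6, from 250 bases before to 50 bases after a start site, were found for 6 of the members, with 2 start sites for Ace. The Agt window, at chr8:124569657-124569956 on the minus strand, holds the region that the study amplified for chromatin immunoprecipitation, between its primers ggtgagccaagcaggcttat and tgatccatcttggtcaagcc. Capitals mark this stretch of 130 bases, which ends 6 bases before the start site.
Agt: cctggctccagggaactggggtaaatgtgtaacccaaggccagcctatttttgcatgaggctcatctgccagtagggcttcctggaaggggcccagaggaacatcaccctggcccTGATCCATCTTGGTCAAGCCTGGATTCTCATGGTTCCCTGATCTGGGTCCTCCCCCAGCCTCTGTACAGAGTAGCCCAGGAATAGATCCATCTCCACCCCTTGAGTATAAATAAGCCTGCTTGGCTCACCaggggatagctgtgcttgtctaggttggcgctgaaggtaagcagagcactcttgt
Ace has an upstream window at chr11:105967698-105967997 and an intragenic window at chr11:105974939-105975238, both on the plus strand. Capitals in the intragenic window mark AGGTCA, a nuclear receptor half-site, and CCCNNGGG, the core bound by Ebf factors.
Ace upstream start: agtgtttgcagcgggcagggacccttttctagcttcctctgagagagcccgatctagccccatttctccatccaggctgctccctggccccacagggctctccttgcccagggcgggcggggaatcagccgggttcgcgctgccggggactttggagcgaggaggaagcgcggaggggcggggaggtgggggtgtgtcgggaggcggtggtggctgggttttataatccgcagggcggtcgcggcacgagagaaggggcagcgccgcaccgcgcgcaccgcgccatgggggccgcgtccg
Ace intragenic start: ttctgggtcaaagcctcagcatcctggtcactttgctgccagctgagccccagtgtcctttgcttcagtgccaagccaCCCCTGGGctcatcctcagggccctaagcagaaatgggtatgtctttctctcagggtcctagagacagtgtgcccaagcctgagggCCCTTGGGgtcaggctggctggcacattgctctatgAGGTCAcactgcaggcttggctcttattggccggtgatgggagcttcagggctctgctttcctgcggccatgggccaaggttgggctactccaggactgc
On either strand, AGGTCA occurred in 16.3% and CCCNNGGG in 13.7% of all 32851 such windows. Among the 7 windows of the members, each was found only in the intragenic window of Ace. The letters ACAAAG and ACAATG, which Sox factors bind, occurred in 18.7% and 12.6% of all windows. Of the members, Npr2 held ACAAAG and none held ACAATG. A match is a description of the letters and shows no binding, and which Ace start was used cannot be read from 1 value per gene.

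The genes of the angiotensin precursor and its converting enzyme had higher levels under the Sox4-MKO label at an unadjusted p under 0.05 in limma. No receptor gene reached this with genotype as the only term, and no tested member passed after adjustment. Of the 7 members, 6 had an averaged FPKM above 1 in at least 1 genotype and entered a limma fit of log2(FPKM + 1) over 12877 genes. Agt and Ace had an unadjusted p under 0.05, which is 2 of 6 members (33.3%), against 16.2% of all genes tested, of which 7.95% were higher and 8.28% were lower. After Benjamini-Hochberg adjustment in limma 0 of the 12877 genes (0%) had a p under 0.05, against 2090 before adjustment. The genotypes did not overlap at 3 of the 6 members (Agt, Ace and Npr2), against 51.3% of all genes tested. With 2 mice per genotype an exact two-sided permutation test of 1 gene cannot give a p below 0.333.

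**Figure D1:**
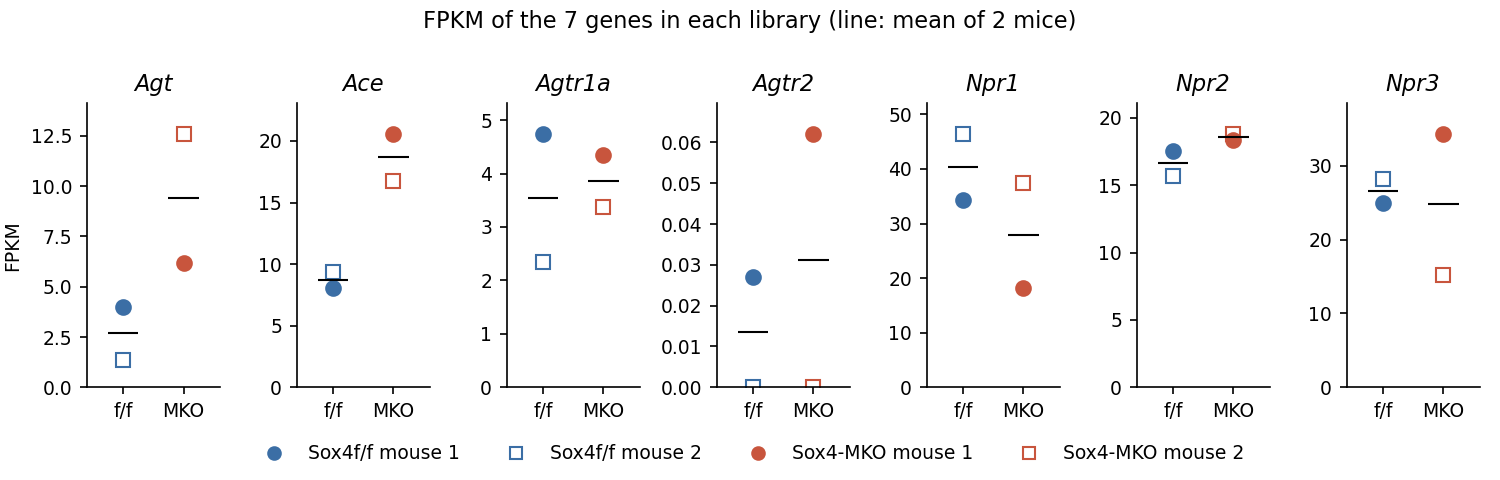
FPKM of each of the 7 genes (y axis, linear and separate for each gene) in the 2 Sox4f/f and the 2 libraries labelled Sox4-MKO, with filled circles for mouse 1, open squares for mouse 2 and a line at the mean. Agt and Ace lie higher in both libraries labelled Sox4-MKO, Npr1 and Npr3 spread most between those 2 libraries, and Agtr2 lies at or close to 0.

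Agt, which spans 124556534 to 124569706 of chromosome 8 (GRCm38, minus strand), reached 4.01 and 1.37 FPKM in Sox4f/f mice 1 and 2. It had 6.18 FPKM in mouse 1 and 12.6 FPKM in mouse 2 labelled Sox4-MKO. Every library labelled Sox4-MKO lay above both Sox4f/f libraries, but mice of the same genotype differed by 2.93-fold in Sox4f/f and 2.04-fold under the Sox4-MKO label. The mean was 3.5-fold higher, from 2.69 ± 1.87 to 9.40 ± 4.56 FPKM (SD, n = 2 each). The log2 fold change was 1.52 (standard error 0.49, 95% interval 0.22 to 2.82) with an unadjusted p of 0.0304 and an adjusted p of 0.262 by limma. The estimated fragments behind the values were 102 and 31 in Sox4f/f and 148 and 387 in the others. The call was lost without Sox4f/f mouse 2 (log2 fold change 0.98, unadjusted p = 0.142 by limma) and without mouse 2 labelled Sox4-MKO (1.06, unadjusted p = 0.138 by limma). Agt is among the genes that the study treats as selective for white adipose tissue, and it was examined here with earlier results of these libraries known, so its direction is not independent evidence.

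Ace, on chromosome 11 from 105967945 to 105989964 on the plus strand, varied least between mice of a genotype among the members that were called. It had 8.09 and 9.37 FPKM in Sox4f/f mice 1 and 2 and 20.6 and 16.8 FPKM in mice 1 and 2 labelled Sox4-MKO. The gap between the genotypes was larger than the difference between mice of either genotype, which was 1.16-fold in Sox4f/f and 1.23-fold in the others. The mean was 2.14-fold higher, from 8.73 ± 0.905 to 18.7 ± 2.72 FPKM (SD, n = 2 each). By limma the log2 fold change was 1.01 (standard error 0.17, 95% interval 0.57 to 1.46), with an unadjusted p of 0.00249 and an adjusted p of 0.196. Ace kept an unadjusted p under 0.05 in all 13 alternatives tried, and its log2 fold change stayed between 0.87 and 1.15. The annotated antisense gene Gm11651 was listed at 0 in all 4 libraries.

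Agtr1a encodes the main type 1 receptor of rodents and lies on chromosome 13 from 30336441 to 30382867. Its values were 4.75 and 2.34 FPKM in Sox4f/f mice 1 and 2 and 4.35 and 3.37 FPKM in mice 1 and 2 labelled Sox4-MKO. The mice labelled Sox4-MKO lay between the 2 Sox4f/f mice. The log2 fold change of 0.14 had a 95% interval from -0.71 to 0.99 (adjusted p = 0.846 by limma), and its sign turned to -0.25 without Sox4f/f mouse 2. Its near-identical paralog Agtr1b was listed at 0 in all 4 libraries, and how fragments shared by the paralogs were assigned is not stated in the sources used here. Agtr2, the type 2 receptor gene on chromosome X from 21484544 to 21489164, was listed at 0.0271 FPKM in Sox4f/f mouse 1, at 0.0622 FPKM in mouse 1 labelled Sox4-MKO and at 0 in the other 2 libraries. These values correspond to about 1 and 3 fragments, so a difference in Agtr2 was not detectable at this depth.

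Of 21 further genes of the renin-angiotensin pathway, 13 passed the FPKM limit, 3 were higher at an unadjusted p under 0.05 and 0 were lower, against 7.95% and 8.28% of all genes tested. The median log2 fold change was 0.09 against -0.05 over all genes tested. Enpep encodes aminopeptidase A, which trims angiotensin II. It had 13.1 and 9.38 FPKM in Sox4f/f and 23.1 and 26.6 FPKM under the Sox4-MKO label, a log2 fold change of 1.09 ± 0.20 (standard error), at an adjusted p of 0.196 in limma. Cma1 and Mcpt4, mast cell chymases, had the largest changes of the list. Cma1 had 1.79 and 1.91 FPKM in Sox4f/f, compared with 10.9 and 8.90 FPKM, and Mcpt4 had 3.30 and 3.03 FPKM against 15.0 and 9.26 FPKM. Both are also among the 8 mast cell markers, which together had 14.1 and 16.2 FPKM in Sox4f/f and 49.3 and 43.0 FPKM under the Sox4-MKO label. This sum includes Cma1 and Mcpt4 and is therefore not separate from their change.

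The remaining genes of the pathway were not called or were not above the limit. Ren1, which encodes renin, and Mas1, the receptor gene for angiotensin 1-7, were listed at 0 in every library. Atp6ap2, the prorenin receptor gene, had 22.3 and 21.6 FPKM in Sox4f/f and 23.5 and 24.3 FPKM in the others. Its log2 fold change was 0.12 with a 95% interval from -0.20 to 0.43 (adjusted p = 0.655 by limma). Agtrap, whose product binds the type 1 receptor and promotes its internalization, had 5.73 and 5.80 FPKM in Sox4f/f and 5.35 and 4.26 FPKM under the Sox4-MKO label, with an adjusted p of 0.548 by limma.

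**Figure D2:**
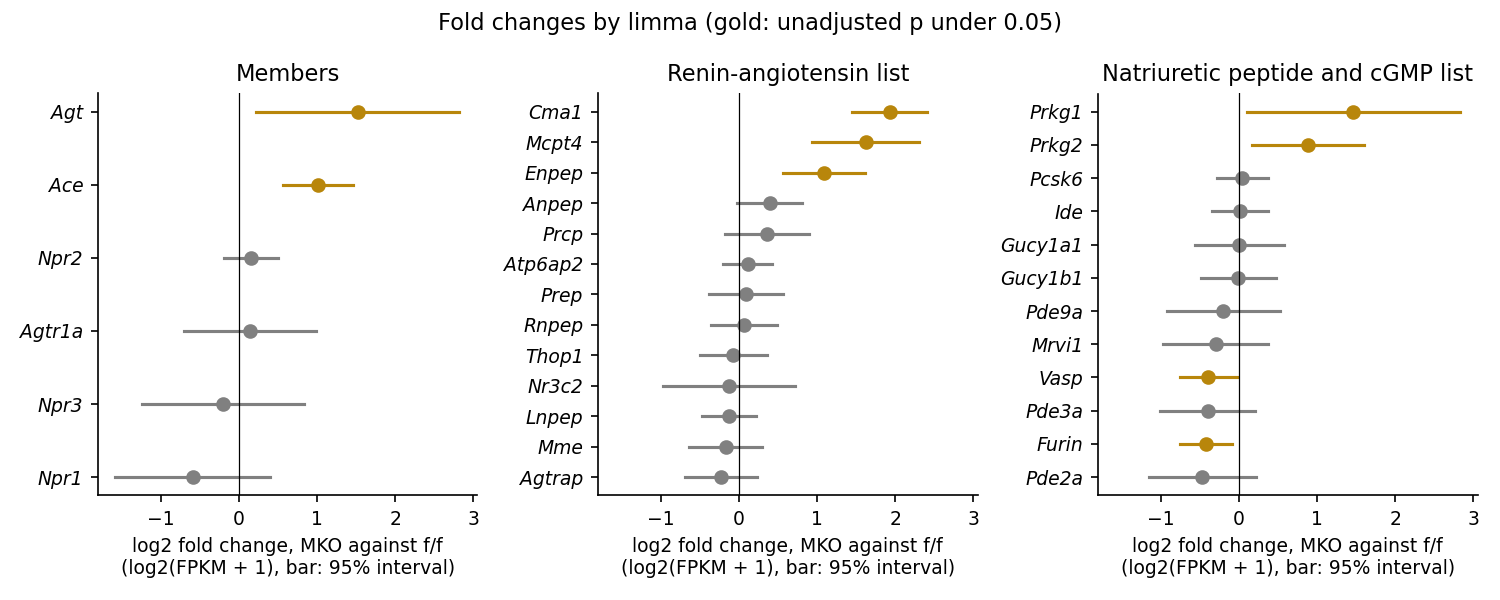
Log2 fold change of the libraries labelled Sox4-MKO against Sox4f/f on the log2(FPKM + 1) scale (x axis) for the 6 tested members, the 13 tested renin-angiotensin genes and the 12 tested natriuretic peptide and cGMP genes, with 95% limma intervals. Gold marks an unadjusted p under 0.05, and 0 of these genes had an adjusted p under 0.05.

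Among the natriuretic peptide receptors, Npr1 and Npr3 differed more between the 2 mice labelled Sox4-MKO than between the genotypes, and in opposite directions. Npr1, on chromosome 3 from 90450591 to 90465866, had 34.3 and 46.5 FPKM in Sox4f/f mice 1 and 2. It had 18.2 FPKM in mouse 1 and 37.5 FPKM in mouse 2 labelled Sox4-MKO, the lowest value and the next to highest. The 2 mice labelled Sox4-MKO thus differed by 2.06-fold and the Sox4f/f mice by 1.36-fold. The log2 fold change of -0.59 (standard error 0.38, 95% interval -1.58 to 0.40) had an unadjusted p of 0.182 and an adjusted p of 0.482 by limma. It was -1.09 without mouse 2 labelled Sox4-MKO, with an unadjusted p of 0.0153 by limma, and -0.09 without mouse 1.

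Npr3, on chromosome 15 from 11839896 to 11907287, had 24.95 and 28.2 FPKM in Sox4f/f mice 1 and 2. It had 34.4 FPKM in mouse 1 and 15.2 FPKM in mouse 2 labelled Sox4-MKO, the highest and the lowest of the 4 values. The log2 fold change of -0.20 had a 95% interval from -1.24 to 0.83 (adjusted p = 0.819 by limma). It was 0.36 without mouse 2 labelled Sox4-MKO and -0.76 without mouse 1, with an unadjusted p of 0.0147 by limma for the latter, so its direction rested on which of these mice was included. Gm5144, annotated as a noncoding gene of a bidirectional promoter, lies on the opposite strand and overlaps Npr3. It followed the same order, with 5.92 and 7.65 FPKM in Sox4f/f and 9.14 and 1.87 FPKM under the Sox4-MKO label. What this shared order rests on was not tested. The labels name a stranded library kit and the study's methods a different one, and the use of strand in counting is not given in the sources used here, so fragments from the stretch shared by both genes cannot be told apart.

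Npr2, on chromosome 4 from 43631935 to 43651244, varied least of the members above the FPKM limit. It had 17.6 and 15.7 FPKM in Sox4f/f and 18.3 and 18.8 FPKM under the Sox4-MKO label. The genotypes did not overlap, but the log2 fold change was 0.15 with a 95% interval from -0.19 to 0.50 (unadjusted p = 0.299, adjusted p = 0.586 by limma). All 13 alternatives left it uncalled, with log2 fold changes from 0.08 to 0.23.

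The ratio of signalling to clearance receptor within a library is unaffected by a scaling factor applied to the whole library. Npr1 exceeded Npr3 by 1.37-fold and 1.65-fold in Sox4f/f mice 1 and 2 and by 2.46-fold in mouse 2 labelled Sox4-MKO, whereas in mouse 1 labelled Sox4-MKO the ratio was 0.529. The mean log2 ratio was 0.59 ± 0.19 in Sox4f/f and 0.19 ± 1.57 under the Sox4-MKO label (SD, n = 2 each), a difference of -0.40 (exact permutation p = 1.0). For Npr2 to Npr3 the ratios were 0.703 and 0.557 in Sox4f/f and 0.534 and 1.24 in the others, a log2 difference of 0.38 (exact permutation p = 1.0). For Npr1 to Npr2 the log2 difference was -0.78 (exact permutation p = 0.667). The mice labelled Sox4-MKO lay on both sides of the Sox4f/f mice for the Npr1 to Npr3 and the Npr2 to Npr3 ratio, and 0.333 is the smallest p this design allows for these 3 ratios.

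**Figure D3:**
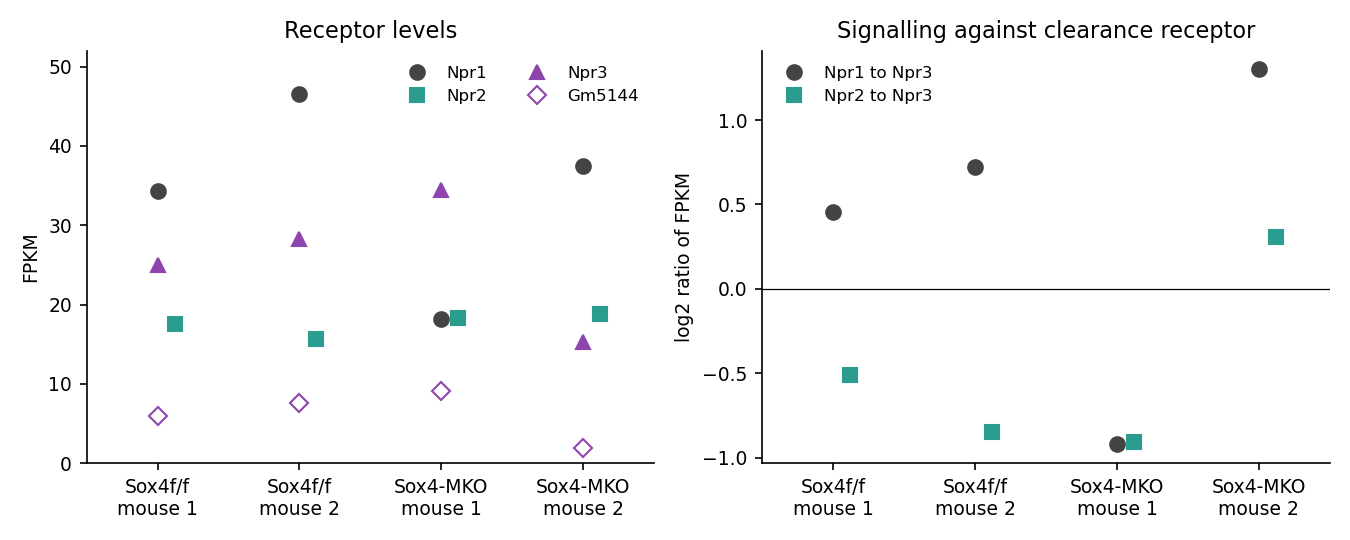
FPKM of Npr1, Npr2, Npr3 and the overlapping gene Gm5144 (left, linear y axis) and the log2 ratio of Npr1 or Npr2 to Npr3 (right) in each of the 4 libraries. The log2 ratio of Npr1 to Npr3 was -0.92 in mouse 1 and 1.30 in mouse 2 labelled Sox4-MKO, against 0.46 and 0.72 in Sox4f/f.

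The ligands of these receptors were close to or at the limit of detection. Nppa and Nppb, which encode the atrial and B-type peptides, were listed at 0 in all 4 libraries. Nppc, the C-type peptide gene, gave 0 and 0.0959 FPKM in Sox4f/f mice 1 and 2, with 0.248 and 0.241 FPKM in the others, from an estimated 0 to 4 fragments. Ostn encodes osteocrin, a peptide made in muscle and bone that binds the clearance receptor. It was listed at 0 in both Sox4f/f libraries and at 1.08 and 0.193 FPKM in mice 1 and 2 labelled Sox4-MKO, from about 19 and 4 fragments. Ostn was thus highest in the library with the most skeletal muscle marker RNA, whose part in this result was not tested. Corin, the gene of the protease that activates the atrial peptide, was above 0 only in mouse 2 labelled Sox4-MKO, at 0.0325 FPKM.

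Of the 21 genes listed for processing of the peptides and for cGMP signalling, 12 passed the FPKM limit, 2 were higher and 2 were lower at an unadjusted p under 0.05, against 7.95% and 8.28% of all genes tested. The median log2 fold change was -0.10. Prkg1 and Prkg2 encode the cGMP-dependent protein kinases. Prkg1 had 1.26 and 1.41 FPKM in Sox4f/f and 9.76 and 2.86 FPKM in mice 1 and 2 labelled Sox4-MKO, a log2 fold change of 1.47 (adjusted p = 0.286 by limma) that was 0.73 without mouse 1 labelled Sox4-MKO. Prkg2 had 0.163 and 0.319 FPKM against 1.04 and 1.55 FPKM, and it passed the limit only through the libraries labelled Sox4-MKO. Furin, a convertase of peptide precursors, had 38.0 and 36.2 FPKM in Sox4f/f and 26.0 and 29.0 FPKM in the others, a log2 fold change of -0.42 (adjusted p = 0.245 by limma). Vasp, a substrate of the kinase, had 19.2 and 22.3 FPKM, compared with 15.3 and 15.8 FPKM, giving a log2 fold change of -0.39 (adjusted p = 0.287 by limma). All 4 of these calls were lost without Sox4f/f mouse 1 and also without Sox4f/f mouse 2, and those of Furin and Vasp were lost without mouse 1 labelled Sox4-MKO. Pde5a, a cGMP phosphodiesterase gene that fell outside the test, had 0.982 and 1.01 FPKM in Sox4f/f and 0.747 and 1.02 FPKM under the Sox4-MKO label.

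By mean level over the 4 libraries the order of the members was Npr1 (34.1 FPKM), Npr3 (25.7 FPKM), Npr2 (17.6 FPKM), Ace (13.7 FPKM), Agt (6.04 FPKM), Agtr1a (3.70 FPKM) and Agtr2 (0.0223 FPKM). Agtr2 was below every other member in every library. The ranges of the neighbours Npr1 and Npr3, Npr3 and Npr2, Npr2 and Ace, Ace and Agt, and Agt and Agtr1a overlapped, so these neighbours were not separated beyond their spread over the 4 libraries. Within each library, however, Ace exceeded Agt. In mouse 1 labelled Sox4-MKO, Ace at 20.6 FPKM exceeded Npr1 at 18.2 FPKM, while in Sox4f/f mouse 2 Ace at 9.37 FPKM was well below Npr1 at 46.5 FPKM. Agt was below Agtr1a in both Sox4f/f mice and above it in both mice labelled Sox4-MKO.

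Marker RNA of the cell types that may express the members was compared in the same libraries. Over all genes tested, 7.95% were higher and 8.28% were lower at an unadjusted p under 0.05 in limma. ACE and the receptor encoded by Npr1 are known from endothelium, and of 8 endothelial markers 0 were higher and 1, Tie1, was lower at an unadjusted p under 0.05. Their summed level was 190 and 277 FPKM in Sox4f/f mice 1 and 2 and 140 and 211 FPKM in mice 1 and 2 labelled Sox4-MKO, the same order of the 4 libraries as for Npr1. All 8 fibroblast and progenitor markers were higher at an unadjusted p under 0.05, from 376 and 415 FPKM in sum in Sox4f/f to 835 and 777 FPKM. Of the 8 macrophage markers 6 were higher, from 159 and 240 FPKM in sum to 339 and 332 FPKM. Dpp4 of the former list and Fcgr1 of the latter entered the test only through the libraries labelled Sox4-MKO. The sums of the fibroblast, macrophage, mast cell and skeletal muscle markers each ranked the 4 libraries as Ace did. Not every single marker did so, and the mast cell sum includes Cma1 and Mcpt4 of the renin-angiotensin list. Kit of the mast cell list, for example, had 5.11 FPKM in mouse 1 and 8.15 FPKM in mouse 2 labelled Sox4-MKO. With 4 libraries a shared order is a description only, and 51.3% of all genes tested did not overlap between the genotypes. The part of these cells in the differences of Agt, Ace and Npr1 was not tested.

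Of the 8 smooth muscle and pericyte markers 1 was higher, with sums of 189 and 217 FPKM in Sox4f/f and 162 and 223 FPKM under the Sox4-MKO label. The adipocyte genes Adipoq and Plin1 were high in every library, at 711 to 1123 and at 708 to 851 FPKM, and Ucp1 and Cidea were high as well, so the libraries carried the markers of the labelled tissue. The 6 adipocyte markers included 3 that were lower (Ucp1, Cidea and Lipe) and 1 that was higher (Lep), and their sum was 5989 and 5950 FPKM in Sox4f/f and 3682 and 4419 FPKM in the others. Of the 8 skeletal muscle markers 7 were higher, of the 5 tested mast cell markers 4, of the 4 tested lymphocyte markers 2, and of the 6 tested Schwann cell markers 0. These counts stand beside 7.95% of all genes tested that were higher and 8.28% that were lower at an unadjusted p under 0.05 in limma. No marker was listed at 0 in all 4 libraries.

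**Figure D4:**
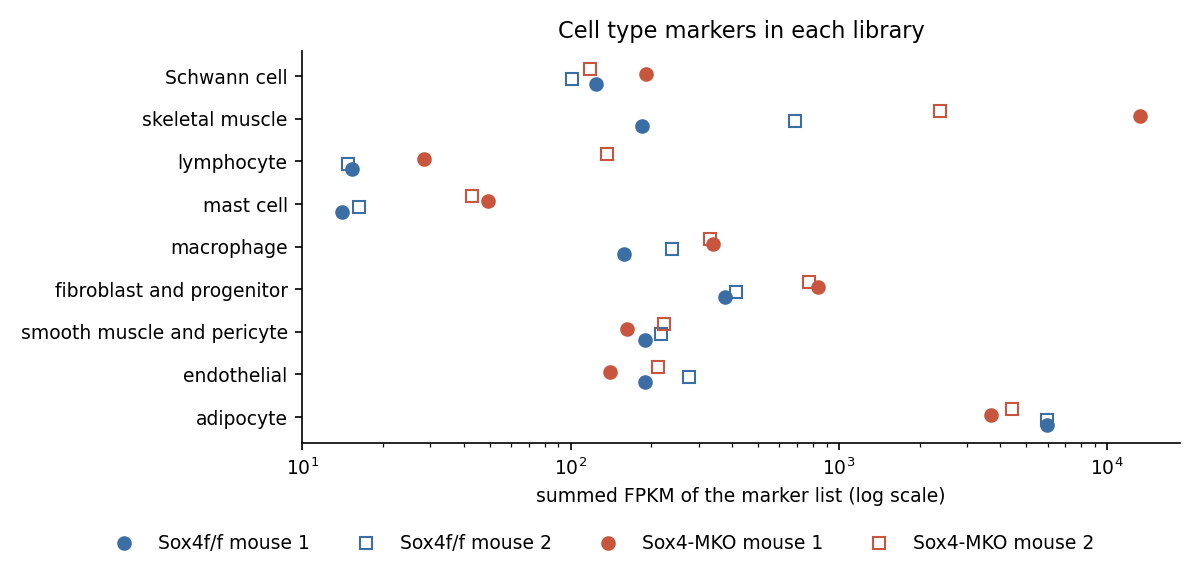
Summed FPKM of each cell type marker list (x axis, log scale) in each library, with filled circles for mouse 1 and open squares for mouse 2. Fibroblast, macrophage, mast cell and skeletal muscle markers lie higher in both libraries labelled Sox4-MKO, with skeletal muscle at 13260 FPKM in mouse 1 labelled Sox4-MKO, and so do lymphocyte markers, at 136 FPKM in mouse 2. The adipocyte sum lies lower in both libraries labelled Sox4-MKO, with Ucp1 and Cidea its largest parts in Sox4f/f. Endothelial and smooth muscle sums overlap.

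The genes with the most similar profile were found by the Euclidean distance of centred log2(FPKM + 1) values over the 4 libraries, among 12595 genes with no library at 0. With 4 libraries this is a description only. Ace was closest to Gadd45a (distance 0.040), Fstl1 (0.058), which encodes a secreted glycoprotein, and Pknox2 (0.082). Fstl1, for example, had 13.4 and 15.4 FPKM in Sox4f/f and 32.6 and 28.2 FPKM under the Sox4-MKO label. Agt, whose own profile had the largest length of the members (1.82), was closest to Trf, the transferrin gene, at 0.282, with 175 and 103 FPKM in Sox4f/f and 274 and 467 FPKM in the others, followed by Tmem116 (0.482) and the complement gene C4b (0.536). Npr1 was closest to Gm15445 (0.130), the small heat shock protein gene Hspb1 (0.130) and Nedd9 (0.141), and Hspb1 had its lowest value of 179 FPKM in mouse 1 labelled Sox4-MKO. The genes close to Npr3 included Rftn1 (0.096) and C2cd2 (0.106), each lowest in mouse 2 labelled Sox4-MKO. Agtr1a was closest to Pcdh18 (0.087), Plod2 (0.096) and Psmb8 (0.099), and Npr2, with its nearly level profile, to Hexa (0.009), Basp1 (0.010) and Pik3ca (0.015).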

How the data were processed

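RNA sequencing of BAT from 4 mice was analysed. The authors deposited 1 FPKM value per gene symbol and library, with replicates kept apart. The submitters' processing notes name mm10, Cufflinks 2.1.1 and Cuffdiff, whereas the aligner, the annotation and the use of strand are not given in the sources used here. The labels name a column kit for RNA and a stranded library kit, whereas the study's methods name TRIzol and TruSeq. An FPKM of 0 can be a failed estimate. Counts were not analysed here. Therefore limma 3.58.1 (R 4.3.3, trended prior, genotype as the only term, two-sided) was fitted to log2(FPKM + 1) of all genes whose averaged FPKM exceeded 1 in either genotype, the limit of the study, with Benjamini-Hochberg adjustment over all of them. A fold change on this scale understates the change of low genes. The code was tested on simulated data.

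Named genes were the members, Sox4, list genes with an unadjusted p under 0.05, fixed ligand, receptor and enzyme genes, and the 3 nearest profiles of each member. Some genes this rule names are not reported here. Tie1, Dpp4, Fcgr1, Gm5144, Gm11651 and the adipocyte markers were singled out after their values were seen. Members and lists were chosen with earlier results of these data known. Ren2 of the renin-angiotensin list matched no row.

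Fragments were estimated from the lowest FPKM × kb cluster of 6741 genes with 1 transcript of at least 1500 nt, and from the longest transcript of each gene in GENCODE M21 (GRCm38). They are approximate, and the labels do not give sequencing depth. Mice were taken as replicates from their labels. Figures were drawn with matplotlib 3.10.9. Alternative settings comprised mouse number as a replicate block, omission of each library, 3 other scalings, other FPKM limits (0.1, 5 and none) and pseudocounts of 0.1 and 0.01.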

Additional observations from a re-analysis of the deposited data

How the results depend on the processing

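The direction of Agt, Ace, Npr1 and Npr2 held in all 13 alternatives. With each library left out in turn, the log2 fold change ranged from 0.98 to 2.06 for Agt, from 0.87 to 1.15 for Ace, from -1.09 to -0.089 for Npr1, from -0.76 to 0.36 for Npr3, from -0.25 to 0.53 for Agtr1a and from -0.32 to 0.71 for Sox4. The difference in log2 ratio ranged from -1.51 to 0.71 for Npr1 to Npr3 and from -0.23 to 0.98 for Npr2 to Npr3. Members called ranged from 1 to 3, all genes called at an unadjusted p under 0.05 from 849 to 2394 (lowest without Sox4f/f mouse 1, and 1070 without Sox4f/f mouse 2), genes with an adjusted p under 0.05 from 0 to 5 (5 without Sox4f/f mouse 2), and calls in the natriuretic peptide and cGMP list from 0 to 4. Those calls were also 2 after quantile normalization, after rescaling without mitochondrially encoded genes and Ucp1, and with an averaged FPKM limit of 5. Over the alternatives the adjusted p ranged from 0.235 to 0.692 for Agt and from 0.126 to 0.692 for Ace. Agtr2 entered only with no FPKM limit, with a log2 fold change of 0.02 and an adjusted p of 0.871.

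Libraries share only a number within the labels: the deviations of same-numbered libraries correlated at -0.01 over 12877 genes. With mouse number as a replicate block, Agt kept its log2 fold change of 1.52 at an unadjusted p of 0.056, and Npr1 its -0.59 at an unadjusted p of 0.0439 by limma. The causes of these changes were not tested. Agtr2, Ren1 and the peptide genes had few or no estimated fragments. Whether depth or absent expression accounts for this was not tested.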
